A study of Mus musculus with 8 samples.

Results

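The Gadd45 family (Gadd45a, Gadd45b and Gadd45g) was followed through early large pre-B (LPre-B) and small pre-B (sPre-B) cells of mice with and without a B-lineage deletion of Upf1. The 3 genes were found by symbol among the 27179 genes of the count table, and all 3 passed the expression filter that left 17700 genes for testing. Gadd45b was chosen by its measured values in these libraries, as a decay target whose response to the deletion depended on the stage, so its changes are given as a description without a test. Gadd45a and Gadd45g entered by family name, and their tests are given.

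GADD45 proteins are small stress-inducible adaptors without enzyme activity. They bind the kinase MAP3K4 (MEKK4) upstream of p38 and JNK, the Cdk1-cyclin B1 complex, PCNA and p21, and they are known for roles in growth arrest, DNA repair and active DNA demethylation. UPF1 is the RNA helicase at the centre of nonsense-mediated mRNA decay (NMD), and Gadd45b mRNA is a known target of this pathway in other cells. In developing B cells, Gadd45a has been linked to the FOXO1-dependent transcription of Rag1 and Rag2.

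RNA of sorted bone marrow cells was sequenced in 8 libraries, 2 for each of 4 groups. All mice were adult, age-matched males and females on a C57BL/6 background, with both Upf1 alleles floxed and 1 pre-rearranged heavy chain allele, Igh B1-8hi. Ctrl mice were Upf1 Flox/Flox, Mb1 +/+ and Igh B1-8hi/+. The cKO mice were Upf1 Flox/Flox, Mb1 Cre/+ and Igh B1-8hi/+, and their Cre is knocked into the B-lineage gene Cd79a (Mb1). Early LPre-B cells were sorted as large CD43+ CD2- cells, and sPre-B cells as small CD43lo cells carrying CD25 and CD2. The study describes its data points as independent biological replicates, but the labels do not say which animals the libraries come from, so for the cKO groups the spread may be technical.

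The gene-level count of Upf1 did not fall in libraries labelled cKO (244 and 258 CPM against 237 and 213 in early LPre-B cells, 282 and 293 against 186 and 198 in sPre-B cells). CPM are read counts scaled to library size after TMM normalization. The loxP sites flank only part of Upf1, whereas this count covers the whole gene. By immunoblot, the paper reports that UPF1 protein was absent from cKO sPre-B cells of this Igh genotype. Cd79a, the gene that Mb1-Cre interrupts, stood at 160 to 188 CPM in cKO and 543 to 640 CPM in Ctrl at the early stage, and at 325 to 405 and 1478 to 1602 CPM in sPre-B cells. Groups are named below by these labels. Totals per library lay between 68516857 and 160426338 counts, and a count of 3 equals 0.0217 to 0.0426 CPM, which covers counting error only. The B-lineage genes Cd79a, Cd79b, Ebf1 and Pax5 stood at 160 CPM or more in all libraries, and the surrogate light chain genes Vpreb1 and Igll1 at 120 to 338 CPM in early LPre-B and 4.91 to 10.3 CPM in sPre-B cells. Cd2 and Il2ra (CD25) were higher in sPre-B cells, and Mki67 and Spn (CD43) in early LPre-B cells. Il7r, also listed as a marker of the early stage, was not higher there. In Ctrl it stood at 460 and 625 CPM in early LPre-B and 558 and 635 CPM in sPre-B cells. In cKO these levels were 443 and 513 CPM, and 663 and 943 CPM. Summed myeloid marker levels were 23.7 to 36.7 CPM in Ctrl and 14.4 to 19.6 in cKO early LPre-B cells, and 75.7 to 92.7 CPM in Ctrl and 31.1 to 66.6 in cKO sPre-B cells. Summed T and NK cell markers lay between 1.24 and 2.46 CPM, and erythroid markers were at 19.1 to 24.8 CPM in Ctrl and at most 15.4 CPM in cKO early LPre-B cells, and at 31.6 to 37.5 CPM in Ctrl and 15.3 to 23.8 CPM in cKO sPre-B cells. Both Ctrl libraries numbered 2 had 19733 and 28205 counts of Y-linked genes and at most 304 of Xist, whereas the other 6 had at most 34 and at least 290740. The 2 Ctrl libraries of each stage thus come from animals of different sex. Results without these libraries are given beside the lists and interactions they touch.

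Each Gadd45 gene is a short unit of 4 exons. In the GRCm38 annotation the principal transcript of Gadd45a (Entrez 13197) lies on the minus strand of chromosome 6 from 67035096 to 67037406, spans 1223 bases and encodes 165 amino acids. Gadd45b (Entrez 17873) lies on the plus strand of chromosome 10 from 80930073 to 80932204, with 1284 bases and 160 amino acids. Gadd45g (Entrez 23882) lies on the plus strand of chromosome 13 from 51846678 to 51848468, with 1071 bases and 159 amino acids. The 3 transcripts share the layout of their ends. Their 3′ untranslated regions (563, 558 and 489 bases) are shorter than the median of 830 bases over 15655 genes. Their stop codons lie in the last exon, 114, 114 and 111 bases past the last junction, as in 96% of genes. None holds an ATG upstream of the start codon, whereas 53.5% of the 15655 transcripts do. The annotated transcripts hold neither an upstream ATG nor a stop codon before the last junction, features by which NMD is known to select many targets. The paper lists Gadd45b among the RNAs bound by phosphorylated UPF1 in activated splenic B cells. Whether NMD acts on these transcripts was not tested here.

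The promoters are shown because all 3 genes had higher levels in sPre-B than in early LPre-B cells of Ctrl mice. The 250 bases before each start site are from RefSeq on GRCm38.p6, written 5′ to 3′ on the strand of the gene. Distances are counted from the RefSeq start. For Gadd45b this start lies inside the transcript described above, which begins at 80930073. The last bases of the Gadd45b window thus overlap that transcript. Capitals mark the CCAAT box (CCAAT), the octamer bound by POU factors (ATTTGCAT or its reverse complement ATGCAAAT), the E-box (CACGTG) and the TATA box (TATAAA).
Gadd45a, chr6:67037408-67037657, minus strand: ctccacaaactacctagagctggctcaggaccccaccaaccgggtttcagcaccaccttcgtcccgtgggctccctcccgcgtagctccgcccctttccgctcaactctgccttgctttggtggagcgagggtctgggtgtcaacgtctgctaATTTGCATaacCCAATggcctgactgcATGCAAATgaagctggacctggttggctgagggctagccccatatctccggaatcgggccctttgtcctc
Gadd45b, chr10:80929841-80930090, plus strand: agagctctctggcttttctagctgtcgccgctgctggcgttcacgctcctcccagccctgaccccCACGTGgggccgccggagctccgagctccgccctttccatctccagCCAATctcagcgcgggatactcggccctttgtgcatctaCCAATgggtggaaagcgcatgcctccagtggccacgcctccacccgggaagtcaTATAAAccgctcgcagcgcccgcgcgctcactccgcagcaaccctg
Gadd45g, chr13:51846425-51846674, plus strand: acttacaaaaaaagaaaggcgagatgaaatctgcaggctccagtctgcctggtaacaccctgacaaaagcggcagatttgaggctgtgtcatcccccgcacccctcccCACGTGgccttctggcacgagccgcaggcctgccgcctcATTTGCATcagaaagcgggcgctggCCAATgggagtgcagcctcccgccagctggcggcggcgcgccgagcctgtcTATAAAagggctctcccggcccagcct

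Both strands were searched for each motif. A CCAAT box was found in all 3 promoters, 86 bases upstream of the start in Gadd45a, 139 and 100 in Gadd45b, and 78 in Gadd45g. It occurs in 33.8% of 32851 promoter windows of the same length. The octamer was found in Gadd45a (97 and 70 bases upstream) and Gadd45g (103 bases upstream) and not in Gadd45b, and 1.6% of promoters hold it. An octamer together with a CCAAT box is found in 0.767% of promoters. Gadd45b and Gadd45g also have an E-box (185 and 142 bases upstream, 6.02% of promoters) and a TATA box (46 and 27 bases upstream, 12.4%), which the Gadd45a window lacks. The GC box GGGCGG, which is not marked above, is held by 32.7% of promoters. Its reverse complement CCGCCC was found in Gadd45a (163 bases upstream) and Gadd45b (158), and neither form in Gadd45g. A match to the FOXO motif GTAAACA (3.17% of promoters) or the cAMP response element TGACGTCA (1.55%) was not found in these windows. These matches are letters in a window and were not tested as binding sites.

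In early LPre-B cells, the libraries labelled cKO had more Gadd45b and Gadd45g and less Gadd45a than Ctrl. Gadd45b stood at 16.1 and 14.1 CPM in Ctrl and at 45.7 and 44.5 CPM in cKO. It was thus 2.98-fold higher in cKO, a log2 fold change (Log2FC) of 1.58 ± 0.12 (SE, n = 2 per group), and 559 of the 17700 tested genes had a larger increase. Gadd45g, the family member with the lowest level per length in Ctrl cells, stood at 2.21 and 2.41 CPM in Ctrl and at 4.12 and 4.24 CPM in cKO. Its rise was 1.81-fold, with a Log2FC of 0.86 ± 0.17 and an adjusted p of 0.00545 by edgeR's quasi-likelihood test. Gadd45a, the p53- and FOXO-responsive member, stood at 9.78 and 9.82 CPM in Ctrl and at 6.54 and 6.09 CPM in cKO. It fell 1.55-fold, with a Log2FC of -0.63 ± 0.12 and an edgeR adjusted p of 0.00426. For comparison, 14.5% of tested genes rose and 16.9% fell at this stage (adjusted p under 0.05). Of 6 stage markers, 3 (Kit, Spn and Il2ra) also fell in cKO early LPre-B cells and 0 rose, with Kit going from 18.7 and 15.1 CPM to 3.84 and 2.08 CPM and Spn from 198 and 184 CPM to 120 and 137 CPM. Mki67, a proliferation marker, stood at 4460 and 4927 CPM in Ctrl and 2906 and 3071 CPM in cKO, a Log2FC of -0.65 that did not pass (edgeR adjusted p = 0.116). The part of these markers, and of the lower myeloid and erythroid levels, in the changes of the Gadd45 genes was not tested. Bulk RNA cannot tell fewer expressing cells from less RNA per cell.

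In sPre-B cells the order was different. Gadd45g stood at 7.07 and 6.31 CPM in Ctrl and at 47.0 and 34.9 CPM in cKO. It rose 6.12-fold, with a Log2FC of 2.61 ± 0.17 (SE, n = 2 per group) and an edgeR adjusted p of 3.36e-05, while 19.8% of tested genes rose, and 368 genes had a larger increase. Both cKO libraries lay far above both Ctrl libraries, and they were also the pair with the widest spread of the family (41.0 ± 8.51 CPM, mean ± SD). Gadd45b stood at 29.6 and 33.1 CPM in Ctrl and at 26.3 and 23.6 CPM in cKO. It was therefore 1.26-fold lower in cKO sPre-B cells, with a Log2FC of -0.33 ± 0.11. Gadd45a stood at 19.2 and 18.9 CPM in Ctrl and at 15.0 and 16.0 CPM in cKO. Its Log2FC of -0.30 ± 0.11 did not pass the test (edgeR adjusted p = 0.0746), while 14.9% of tested genes fell. This call depended on the setting, since DESeq2 gave -0.33 with an adjusted p of 0.0455 and leaving out Ctrl early LPre-B replicate 1 gave -0.34 with an adjusted p of 0.0455.

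**Figure D1:**
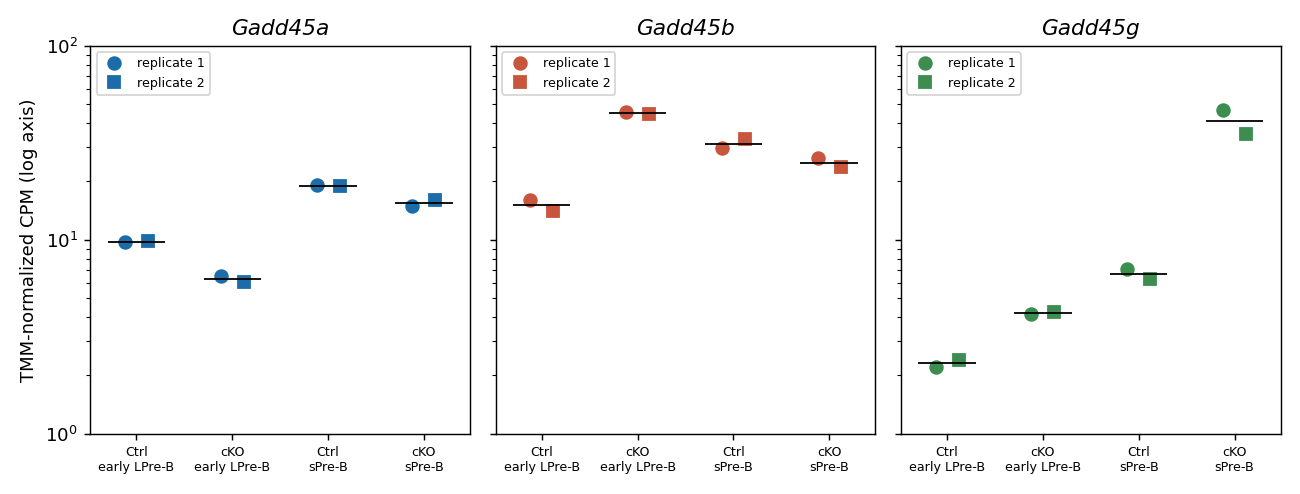
Levels of the 3 Gadd45 genes in TMM-normalized CPM on a log axis, with circles for replicate 1, squares for replicate 2 and a line at the mean of each group. Gadd45b was highest in cKO early LPre-B cells (45.7 and 44.5 CPM), and Gadd45g in cKO sPre-B cells (47.0 and 34.9 CPM).

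The response to the cKO thus differed between the stages in opposite ways for Gadd45g and Gadd45b. For Gadd45g, the Log2FC in sPre-B cells exceeded that in early LPre-B cells by 1.76 ± 0.23 (SE), an additional 3.38-fold, with an edgeR adjusted p of 0.00903 for the interaction. An interaction of this sign was called for 2.64% of tested genes and of the other sign for 1.6%. In the fit without both Ctrl libraries numbered 2, the Gadd45g difference was 1.53 with an adjusted p of 0.0948, so this call rests in part on those libraries. For Gadd45b, the difference was -1.91 ± 0.16, which is the value it was selected on, and 282 of the 17700 genes had a more negative one. The Gadd45a difference of 0.33 ± 0.16 did not pass (edgeR adjusted p = 0.287), with an unadjusted 95% interval from -0.04 to 0.71.

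In Ctrl mice, all 3 genes had higher levels in sPre-B than in early LPre-B cells. The Log2FC of Gadd45a was 0.96 ± 0.12 (1.94-fold, edgeR adjusted p = 1.31e-04) and that of Gadd45g was 1.54 ± 0.17 (2.90-fold, edgeR adjusted p = 7.25e-05). Gadd45b was 2.07-fold higher, with a Log2FC of 1.05 ± 0.12. In Ctrl mice, 29.1% of tested genes rose with the stage and 31.1% fell. Of 6 myeloid markers, 3 were also higher with the stage in Ctrl and 4 in cKO, and their part in these stage differences was not tested. In cKO mice the family split. Gadd45g rose 9.79-fold (Log2FC 3.29 ± 0.17, edgeR adjusted p = 2.10e-06, with 542 genes rising more) and Gadd45a rose 2.45-fold (1.29 ± 0.12, edgeR adjusted p = 2.56e-05). Gadd45b was instead 1.81-fold lower, with a Log2FC of -0.85 ± 0.11. In cKO mice, 31.6% of tested genes rose with the stage and 31.1% fell. Comparisons of stage and of genotype share libraries and are not independent.

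**Figure D2:**
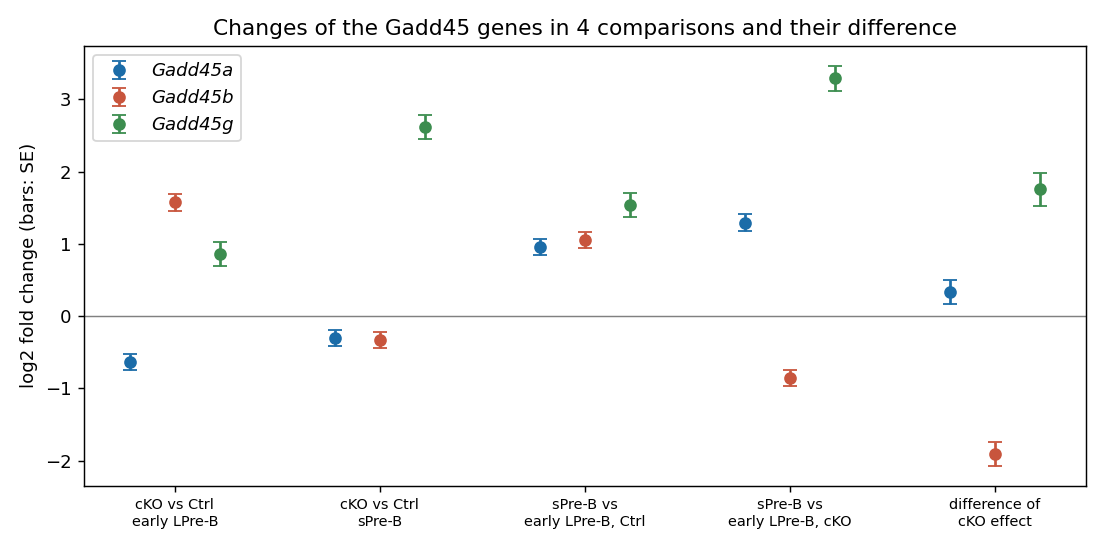
Log2 fold changes of the 3 genes in the 4 comparisons of groups, and the difference of the cKO effect (sPre-B minus early LPre-B), as points with SE bars from the edgeR fit. All 3 genes lie above 0 for the stage in Ctrl (0.96, 1.05 and 1.54), and Gadd45b and Gadd45g lie on opposite sides of 0 for the difference (-1.91 and 1.76).

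In none of the 4 comparisons did the libraries of the groups overlap for any of the 3 genes. Such separation was common at this depth, with 66.3% of tested genes for the cKO in early LPre-B cells, 70.8% for the cKO in sPre-B cells, 80.8% for the stage in Ctrl and 83.1% for the stage in cKO. The counts behind these levels ran from 188 to 5782 per library. Scaled to transcript length, Gadd45b had the highest level in Ctrl early LPre-B cells (11.8 ± 1.07 CPM per kb, SD), followed by Gadd45a (8.01 ± 0.022) and Gadd45g (2.16 ± 0.129). The same order held in Ctrl sPre-B cells, with 24.4, 15.6 and 6.25 CPM per kb, and in cKO early LPre-B cells, with 35.1, 5.16 and 3.91 CPM per kb. In cKO sPre-B cells Gadd45g came first with 38.3 ± 7.95 CPM per kb, above Gadd45b at 19.4 and Gadd45a at 12.7. In each group the libraries of the 3 genes took separate ranges on this scale, and for each gene the 4 groups did. The pooled SD within groups on the log2 scale was 0.049 for Gadd45a, 0.10 for Gadd45b and 0.17 for Gadd45g.

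Gadd45a overlaps E230016M11Rik on the opposite strand, and the reads were aligned without strand. The strand setting of the counting is not given in the sources used here, so reads of the pair may not be told apart where they overlap. E230016M11Rik stood at 5.19 and 5.61 CPM in Ctrl and 4.09 and 3.79 CPM in cKO early LPre-B cells, and at 9.56 and 9.38 CPM in Ctrl and 9.55 and 9.11 CPM in cKO sPre-B cells. It was lower than Gadd45a in every library. No gene of the annotation overlaps Gadd45b or Gadd45g.

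Known NMD targets were set beside the family. All 8 tested members of this list (Gas5, Snhg12 and Zfas1, hosts of small nucleolar RNAs, the stress factors Ddit3 and Atf4, the NMD factors Smg5 and Upf3b, and Tbl2) rose in the cKO at both stages, where 14.5% and 19.8% of all tested genes rose, with a median Log2FC of 2.10 in early LPre-B and 1.70 in sPre-B cells. The medians over all tested genes were -0.06 and 0.01. Snhg12 rose from 14.1 and 12.7 CPM to 389 and 386 CPM in early LPre-B cells (Log2FC 4.85) and from 7.94 and 7.94 CPM to 115 and 122 CPM in sPre-B cells (3.90). Gas5 rose by a Log2FC of 2.76 and 1.95, Zfas1 by 4.88 and 3.38, Ddit3 by 2.43 and 2.05, Atf4 by 1.77 and 1.45, and Smg5 by 1.06 and 0.57. Among these 8 genes, none was lower in the cKO at either stage, whereas Gadd45b was higher at one stage and lower at the other. Gadd45b was selected on this pattern, so the contrast is a description and was not tested. The rise was smaller in sPre-B cells for Snhg12 (interaction -0.96, edgeR adjusted p = 0.00884), Zfas1 (-1.49, adjusted p = 0.00697) and Gas5 (-0.81, adjusted p = 0.0342). The Gas5 interaction passed in 1 of 8 fits that left out a library, that without Ctrl sPre-B replicate 1 (adjusted p 0.0117 to 0.115 over the 8 fits), and those of Snhg12 and Zfas1 passed in 8 of 8. In the fit without both Ctrl libraries numbered 2, their adjusted p were 0.112 for Gas5, 0.0646 for Snhg12 and 0.0657 for Zfas1, and all 8 genes still rose at both stages. In fits that left out 1 library, 7 or 8 of them rose in early LPre-B and 6 to 8 in sPre-B cells, with the fewest without Ctrl sPre-B replicate 1.

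**Figure D3:**
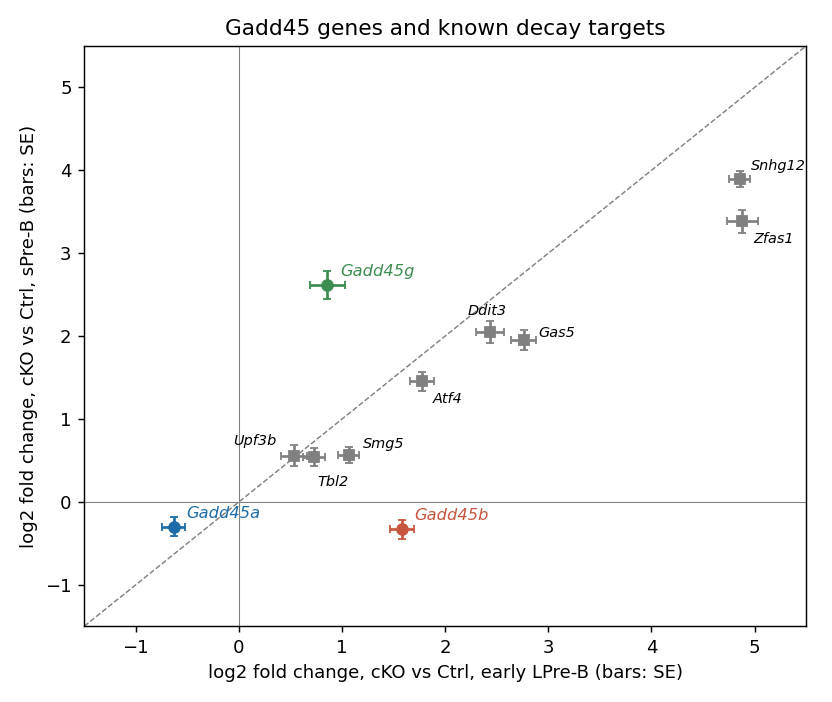
Log2 fold change in cKO against Ctrl in early LPre-B cells (x axis) and sPre-B cells (y axis), with SE bars, for 8 known NMD targets (grey squares) and the 3 Gadd45 genes (coloured circles), and a dashed line of equal change. The 8 targets lie in the quadrant of increases at both stages, Gadd45g lies above the line (0.86 and 2.61), and Gadd45b lies below 0 in sPre-B cells only (1.58 and -0.33).

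The kinases through which GADD45 proteins signal were set beside the family next. Of 9 tested MAP kinase partners, 1 rose and 4 fell in cKO early LPre-B cells (median Log2FC -0.29), and 0 rose and 5 fell in cKO sPre-B cells (median -0.31). Over all tested genes, 14.5% rose and 16.9% fell in early LPre-B cells, and 19.8% rose and 14.9% fell in sPre-B cells. Map3k4, the direct partner of the family, stood at 113 and 105 CPM in Ctrl and 63.9 and 67.2 CPM in cKO early LPre-B cells, and at 82.4 and 80.1 against 45.8 and 48.8 CPM in sPre-B cells. Its Log2FC was -0.73 ± 0.08 (edgeR adjusted p = 4.29e-04) and -0.78 ± 0.08 (edgeR adjusted p = 2.73e-04). Map2k6, which activates p38, fell by 0.72 and 0.94 on the log2 scale. Map2k4, which activates JNK, fell by 0.45 and 0.43, calls that were lost without cKO replicate 1 of the stage (-0.40, edgeR adjusted p = 0.0666, and -0.33, edgeR adjusted p = 0.0801). Map2k3 fell by 0.52 in early LPre-B cells (-0.48, edgeR adjusted p = 0.0556, without cKO early LPre-B replicate 1), with a Log2FC of -0.14 that did not pass in sPre-B cells. For Map2k7, a kinase that GADD45b is known to bind and inhibit, the Log2FC was 0.00 in early LPre-B cells and -0.31 in sPre-B cells. The latter passed (edgeR adjusted p = 0.0231) but not without cKO sPre-B replicate 1 (adjusted p = 0.143), cKO sPre-B replicate 2 (0.0624) or Ctrl sPre-B replicate 2 (0.0872). When both Ctrl libraries numbered 2 were left out, 0 of the 9 partners rose and 3 fell in early LPre-B cells, and 0 rose and 4 fell in sPre-B cells. The number that fell was 2 without cKO replicate 1 of the stage compared, in early LPre-B as in sPre-B cells, and 3 in sPre-B cells without cKO replicate 2, and no partner rose in early LPre-B cells without either of their Ctrl libraries or cKO replicate 1.

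Of the 4 cell cycle partners, 1 (Pcna) fell in cKO early LPre-B cells and 1 (Cdkn1a) rose in cKO sPre-B cells, while 16.9% of all genes fell in the former and 19.8% rose in the latter. When both Ctrl libraries numbered 2 were left out, 3 (Cdk1, Ccnb1 and Pcna, with edgeR adjusted p of 0.0374, 0.0308 and 0.0251) fell in early LPre-B cells and 1 rose in sPre-B cells. Cdkn1a, which encodes the cyclin-dependent kinase inhibitor p21, stood at 49.4 and 44.7 CPM in Ctrl and 58.0 and 55.5 CPM in cKO early LPre-B cells, a Log2FC of 0.27 that did not pass (edgeR adjusted p = 0.184, or 0.34 and 0.0352 in a fit of only these 4 libraries). In sPre-B cells it rose from 4.54 and 3.50 CPM to 21.1 and 17.4 CPM, with a Log2FC of 2.26 ± 0.15 (edgeR adjusted p = 4.07e-05). The interaction was 1.99 ± 0.21 (edgeR adjusted p = 0.00384), of the same sign as that of Gadd45g, and it passed in all 8 fits that left out a library. Trp53, which encodes the regulator p53, had a Log2FC of 0.19 and 0.05 that did not pass (edgeR adjusted p = 0.216 and 0.786). Cdk1 and Ccnb1, which drive entry into mitosis, and Pcna, the DNA polymerase clamp, fell with the stage in both genotypes together with Cdkn1a (4 of 4, median Log2FC -3.15 in Ctrl and -2.15 in cKO). Over all tested genes, 31.1% fell with the stage in Ctrl and 31.1% in cKO. In the cKO, the Log2FC of Cdk1 was -0.59 in early LPre-B and 0.43 in sPre-B cells, and that of Ccnb1 was -0.69 and -0.00, none past the test. In early LPre-B cells these calls depended on the setting. Both passed with DESeq2 (adjusted p = 0.0427 for Cdk1 and 0.0104 for Ccnb1), without the expression filter (0.0292 and 0.00826) and with only the 4 libraries compared (0.00606 and 0.00292), and Ccnb1 passed with the likelihood-ratio test (0.0251). Also, Cdk1, Ccnb1 and Pcna all fell when 1 of the Ctrl sPre-B libraries was left out, and without Ctrl sPre-B replicate 1 Cdk1 rose in sPre-B cells (0.97, edgeR adjusted p = 0.00308). Pcna fell by 0.48 on the log2 scale in early LPre-B cells (edgeR adjusted p = 0.0371), a call that held in 2 of 8 fits that left out a library (those leaving out 1 of the Ctrl sPre-B libraries, adjusted p up to 0.218 over the 8), and had a Log2FC of -0.17 in sPre-B cells.

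Of 8 tested partners in DNA demethylation and repair, 2 rose and 3 fell in the cKO at each stage, against 14.5% and 16.9% of all genes in early LPre-B and 19.8% and 14.9% in sPre-B cells. Without both Ctrl libraries numbered 2, 2 fell in sPre-B cells. Ercc5 (XPG), an endonuclease of nucleotide excision repair, rose by a Log2FC of 0.97 and 1.02. Mbd4, a thymine glycosylase, rose by 0.79 and 0.53. Tet1, which oxidizes 5-methylcytosine, fell by 1.01 and 1.36 on the log2 scale. Tdg, a second thymine glycosylase, fell by 0.56 and 0.41, and in sPre-B cells this call was lost without cKO replicate 1 (-0.28, edgeR adjusted p = 0.116).

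Among 14 factors known to act on Gadd45 genes, 3 rose and 6 fell in cKO early LPre-B cells (median Log2FC -0.27), and 4 rose and 5 fell in cKO sPre-B cells (median -0.12), where the shares over all genes were 14.5% and 16.9%, and 19.8% and 14.9%. When both Ctrl libraries numbered 2 were left out, 2 rose and 5 fell in early LPre-B cells. The number that fell was 3 in early LPre-B and 2 in sPre-B cells without cKO replicate 1 of the stage compared. Those with the lowest adjusted p at either stage were Ddit3 and Atf4, given above as NMD targets, Smad3 and Egr1. Smad3, a TGF-beta signal transducer, stood at 66.2 and 62.4 CPM in Ctrl and 44.8 and 48.8 CPM in cKO early LPre-B cells, and at 123 and 126 against 52.8 and 53.9 CPM in sPre-B cells. Its Log2FC was -0.46 and -1.22, and the interaction of -0.77 passed (edgeR adjusted p = 0.0142), though not without cKO early LPre-B replicate 2 (adjusted p = 0.0515), cKO sPre-B replicate 1 (0.0552) or both Ctrl libraries numbered 2 (0.0855). Egr1, a zinc finger factor of the early growth response, fell by 1.89 and 3.23 on the log2 scale, with an interaction of -1.34 that did not pass (edgeR adjusted p = 0.0502).

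Gadd45a had a profile across the libraries that was close to that of Foxo1. Over the 8 libraries, the genes whose log2 CPM was most like that of Gadd45a among 13650 compared were Cdc42se1, a CDC42 effector (Pearson r = 0.9975), Cds2, an enzyme of phospholipid synthesis (0.9961), Zhx2, a transcriptional repressor (0.996), Nfkbia, the NF-kappaB inhibitor (0.9957), and Foxo1 (0.9957). Within the family, r was -0.241 for Gadd45a and Gadd45b, 0.534 for Gadd45a and Gadd45g and 0.136 for Gadd45b and Gadd45g. These values describe 8 libraries that fall into 4 groups of stage and genotype. Foxo1 stood at 231 and 234 CPM in Ctrl and 114 and 120 CPM in cKO early LPre-B cells, and at 682 and 667 CPM in Ctrl and 533 and 503 CPM in cKO sPre-B cells. Its level was therefore lowest in cKO early LPre-B cells and highest in Ctrl sPre-B cells, the order of Gadd45a.

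Of the 5 genes of the RAG axis, 1 rose and 4 fell in cKO early LPre-B cells (median Log2FC -1.04), and 1 rose and 3 fell in cKO sPre-B cells (median -0.38). The shares of all tested genes were 14.5% higher and 16.9% lower in the former, and 19.8% higher and 14.9% lower in the latter. Rag1, a subunit of the V(D)J recombinase, fell from 409 and 385 CPM to 44.0 and 74.9 CPM in early LPre-B cells (Log2FC -2.74) and from 3508 and 2964 CPM to 1497 and 1612 CPM in sPre-B cells (-1.06, edgeR adjusted p = 0.00914, or 0.0623 without cKO sPre-B replicate 1). Rag2, the other subunit, fell by 1.04 on the log2 scale in early LPre-B cells, and its Log2FC of -0.15 in sPre-B cells did not pass. Foxo1 fell by 0.998 and 0.379, and in sPre-B cells the call was lost without cKO replicate 1 (edgeR adjusted p = 0.0650) or cKO replicate 2 (0.101). Gfi1, a repressor, fell by 1.27 and 0.67, the latter not without cKO sPre-B replicate 1 (edgeR adjusted p = 0.169) or Ctrl sPre-B replicate 2 (0.128). The 1 gene of the axis that rose was Gfi1b. It went from 18.6 and 16.4 CPM in Ctrl to 32.6 and 27.9 CPM in cKO early LPre-B cells. In sPre-B cells it went from 2.91 and 2.44 CPM to 5.31 and 4.24 CPM. The Log2FC was less negative in sPre-B cells for Rag1 (interaction 1.68, edgeR adjusted p = 0.0315), Rag2 (0.89, 0.0346) and Foxo1 (0.62, 0.0468). The Foxo1 interaction passed in 0 of 8 fits that left out a library (adjusted p 0.0821 to 0.184) and not with median-ratio factors (0.0554). Those of Rag1 and Rag2 passed in 2 of 8, without cKO early LPre-B replicate 2 and without Ctrl sPre-B replicate 1, and the highest adjusted p were 0.0898 and 0.111. In the fit without both Ctrl libraries numbered 2, the 3 interactions had adjusted p of 0.171, 0.199 and 0.188, and 0 genes of the axis rose and 2 fell in sPre-B cells. Without cKO sPre-B replicate 1, 1 rose and 0 fell in sPre-B cells, without cKO sPre-B replicate 2 or Ctrl sPre-B replicate 2, 2 fell, and without cKO early LPre-B replicate 1, 0 rose in early LPre-B cells.

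**Figure D4:**
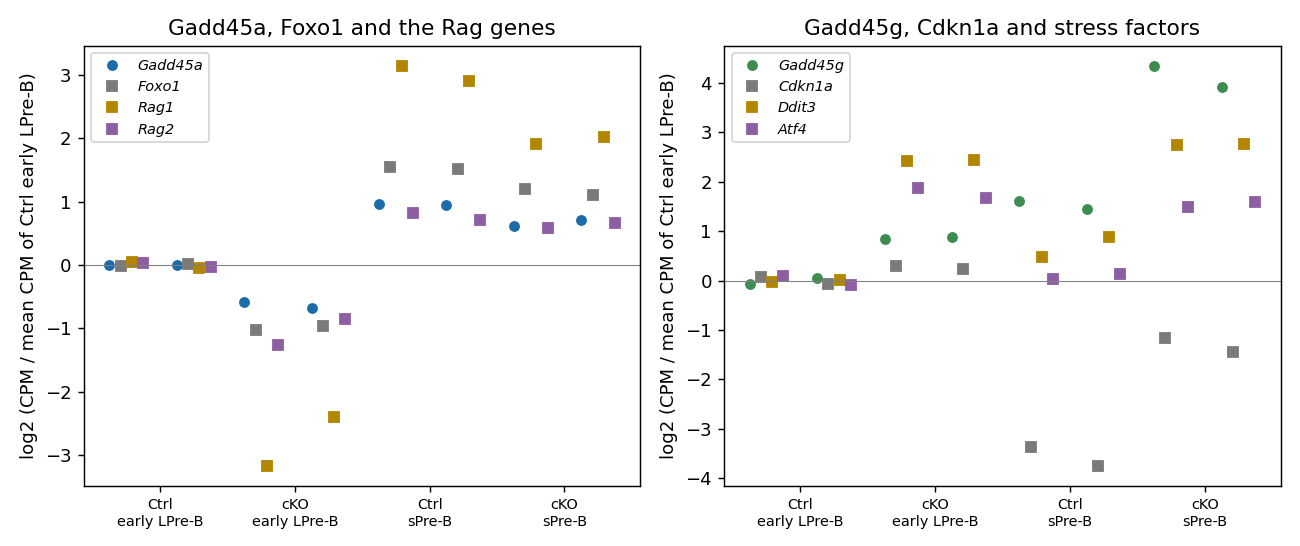
Levels in each of the 8 libraries as log2 of CPM over the mean CPM of Ctrl early LPre-B cells, for Gadd45a with Foxo1, Rag1 and Rag2 (left) and Gadd45g with Cdkn1a, Ddit3 and Atf4 (right), replicate 1 before replicate 2 in each group. Gadd45a, Foxo1, Rag1 and Rag2 are lowest in cKO early LPre-B cells, and Gadd45g is highest in cKO sPre-B cells (47.0 and 34.9 CPM).

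The genes most like the other members were of other kinds. For Gadd45b they were Aldh4a1, a mitochondrial enzyme of proline breakdown (r = 0.971), Aox2, an aldehyde oxidase (0.9645), Lrpap1, a chaperone of lipoprotein receptors (0.9633), Pigb, an enzyme of GPI anchor synthesis (0.957), and the small nucleolar RNA Snora3 (0.9539). Aldh4a1 was highest in cKO early LPre-B cells as well, with a mean of 20.6 CPM against 12.4 in Ctrl, 17.1 in Ctrl sPre-B and 16.8 in cKO sPre-B cells. For Gadd45g they were Apba1, an adaptor protein (r = 0.999), Rdh5, a retinol dehydrogenase (0.996), the zinc finger gene Zfp948 (0.996), a gene without a symbol (Entrez 100503502, 0.9952) and Gm10790 (0.995). Apba1 had group means of 2.73 CPM in Ctrl and 3.79 in cKO early LPre-B cells, and of 5.13 in Ctrl and 15.9 in cKO sPre-B cells. These genes were picked for their likeness over the same libraries, and no test is attached to them.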

How the data were processed

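RNA-seq covered 2 stages of B cells, early LPre-B and sPre-B, in Ctrl and cKO mice, with 2 libraries per group. Ribosomal RNA was depleted and a directional kit was used. After trimming (Trim Galore) and unstranded paired-end alignment to mm10 (HISAT2), the authors deposited raw counts per Entrez gene from featureCounts. Symbols came from RefSeq.

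Differential expression used edgeR 4.0.16 under R 4.3.3 (TMM, filterByExpr by group, 1 mean per group over 8 libraries, two-sided quasi-likelihood F test, Benjamini-Hochberg adjustment over 17700 genes, threshold 0.05). SE is the Log2FC divided by the root of F. CPM used TMM-scaled library sizes of 68516857 to 160426338 counts before scaling. Adjusted p-values are from edgeR unless DESeq2 is named. The fit was tested on simulated data. Transcript lengths came from the GENCODE annotation of GRCm38 and promoters from RefSeq.

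The 3 genes, the lists and the tests were chosen with earlier results of these data known. Named were the family, in each list up to 4 genes with the lowest adjusted p in cKO against Ctrl, a fixed set of partners and targets (Gas5, Ddit3, Smg5, Cdkn1a, Trp53, Foxo1, Rag1, Rag2, Map3k4, Map2k7, Cdk1, Ccnb1 and Pcna), and 5 genes per member with the highest r (log2 CPM with a prior count of 2, mean of at least 1 CPM). Gfi1b, Upf3b, Tbl2 and the cell type and stage markers were named besides. Upp1 was in the decay list but not tested, for low counts. Alternatives were DESeq2 1.42.0, the likelihood-ratio test, median-ratio factors, no filter, a replicate block, only the 4 libraries compared, and leaving out each library. A fit without both Ctrl libraries numbered 2 was added after the data were seen.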

Additional observations from a re-analysis of the deposited data

Results flagged for a closer look

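The effect of the cKO differed between early LPre-B and sPre-B cells, by the interaction of stage and genotype in edgeR, for several genes named above. Values are the Log2FC in sPre-B cells minus that in early LPre-B cells. Gadd45g had a difference of 1.76 and Cdkn1a of 1.99, with larger increases in sPre-B cells. Rag1 (1.68), Rag2 (0.89) and Foxo1 (0.62) had a less negative Log2FC in sPre-B cells, where that of Rag2 did not pass. These 3 differences passed in 2, 2 and 0 of 8 fits that left out a library. Snhg12 (-0.96), Zfas1 (-1.49) and Gas5 (-0.81) had smaller increases in sPre-B cells, and Smad3 (-0.77) a larger decrease. Those of Gas5 and Smad3 passed in 1 and 6 of 8 such fits. Without both Ctrl libraries numbered 2, only the difference of Cdkn1a among those tested here passed. Gadd45b (-1.91) was higher in both cKO libraries of early LPre-B cells and lower in both of sPre-B cells, and since it was selected on this pattern the difference was not tested.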

How the results depend on the processing

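Of the 3 genes' Log2FC values in the 5 comparisons, none changed sign in any alternative. Gadd45g passed in every comparison and setting except the difference between stages without both Ctrl libraries numbered 2 (1.53). Gadd45a in sPre-B cells passed with DESeq2 (-0.33), median-ratio factors (-0.33) and without Ctrl early LPre-B replicate 1 (-0.34), and ran from -0.35 to -0.25 over the fits that left out 1 library. With median-ratio factors its mean was 9.76 CPM in Ctrl early LPre-B and 19.3 CPM in Ctrl sPre-B cells. Leaving out 1 library gave ranges for Gadd45b of 1.54 to 1.71 in early LPre-B cells, -0.45 to -0.26 in sPre-B cells, 1.03 to 1.20 for the stage in Ctrl and -2.08 to -1.84 for the difference. A group left with 1 library was assumed to vary like the others.

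The number of genes with a difference between stages was 750 in the reported fit, 1718 with DESeq2, 1508 with the likelihood-ratio test, 1441 without the filter, 92 without both Ctrl libraries numbered 2 and 126 to 902 over the fits that left out 1 library. It was 126 without cKO early LPre-B replicate 1 and 248 without replicate 2, 251 without cKO sPre-B replicate 1 and 472 without replicate 2, 416 without Ctrl early LPre-B replicate 1 and 242 without replicate 2, and 254 without Ctrl sPre-B replicate 2. The number changed by the cKO in early LPre-B cells (5547) ran from 2923 (without cKO replicate 1) to 5355, with 3511 without cKO replicate 2, and in sPre-B cells (6134) from 3624 (without cKO replicate 1) to 6637. When both Ctrl libraries numbered 2 were left out, these were 4248 and 4866. Fewer samples were fitted there; the cause of the other shifts was not tested.

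Without both Ctrl libraries numbered 2, calls were lost for Map2k4 in early LPre-B cells (adjusted p = 0.0598) and for Map2k7 (0.0782), Tdg (0.0502) and Gfi1 (0.136) in sPre-B cells, and those of Cdk1 (0.0374) and Ccnb1 (0.0308) in early LPre-B cells passed. Some values that had not passed the test changed sign. In sPre-B cells, Ccnb1 had 9.22e-04 without the filter, 0.0215 with the replicate block, and -0.42 to 0.48 over the fits that left out 1 library. Cdk1 had -0.0146 without both Ctrl libraries numbered 2 and -0.0131 to 0.97, Jun -0.62 to 0.0424 and Trp53 -0.0497 to 0.0853 when 1 library was left out. Map2k7 in early LPre-B cells had -0.0017 with the replicate block and -0.0497 to 0.0557 when 1 library was left out.

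Libraries with the same number deviated together only weakly, with correlations of 0.0514 to 0.395 over 6 pairs of groups. With a replicate block the Gadd45g difference was 1.75 (adjusted p = 0.00982), Gadd45a had -0.63 in early LPre-B cells (0.00450) and -0.30 in sPre-B cells (0.0697), and no call on the 3 genes changed. The block gives all libraries numbered 2 a common shift, although those of Ctrl and cKO differed in Y-linked counts. It therefore models neither sex nor animals shared between stages. Among the other named genes followed across settings, the replicate block changed 1 call, that of Fos in early LPre-B cells (-1.39, adjusted p = 0.00330). Single calls of Gfi1b, Upf3b, Tbl2 and the cell type and stage markers were not followed with this block. At 2 libraries per group, Gadd45g rests on as few as 188 counts per library and Gadd45b on up to 5782.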

Other observations

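Of 10 tested immediate early genes, which respond to signals within minutes, 2 rose and 2 fell in cKO early LPre-B cells (median Log2FC -0.28), and 2 rose and 2 fell in cKO sPre-B cells (median -0.04). These counts are near the shares over all tested genes (14.5% higher and 16.9% lower, and 19.8% higher and 14.9% lower). Without both Ctrl libraries numbered 2, 1 rose and 2 fell in early LPre-B cells, and 2 rose and 1 fell in sPre-B cells. Nr4a1, an orphan nuclear receptor, had Ctrl libraries at 3.75 and 3.36 CPM and cKO libraries at 8.62 CPM and above in early LPre-B cells (Log2FC 1.53), and rose from 2.09 and 1.96 CPM to 5.58 and 4.0 CPM in sPre-B cells (1.24). Fos, a subunit of AP-1, fell by 2.84 on the log2 scale in sPre-B cells, with Ctrl libraries at 10.3 and 28.0 CPM and cKO libraries at 1.43 and 3.88 CPM. In the fit without both Ctrl libraries numbered 2, the Fos value was -1.98 with an adjusted p of 0.0519. In early LPre-B cells its Log2FC of -1.33 did not pass (adjusted p = 0.106), though it passed with the replicate block (-1.39, adjusted p = 0.00330), without the expression filter (0.0173) and with only the 4 libraries compared (0.0204). Jun, its partner, fell by 1.23 in early LPre-B cells (-0.85, adjusted p = 0.0518, without Ctrl early LPre-B replicate 1) and had a Log2FC of -0.25 in sPre-B cells. Without Ctrl early LPre-B replicate 1, 1 gene rose and 1 fell in early LPre-B cells. Without Ctrl early LPre-B replicate 2 or 1 of the cKO early LPre-B libraries, 1 rose there, and without 1 of the Ctrl sPre-B libraries 3 fell there. In sPre-B cells, 3 fell when Ctrl replicate 1, cKO replicate 2 or 1 of the cKO early LPre-B libraries was left out, and 1 rose without Ctrl sPre-B replicate 1 or cKO sPre-B replicate 2.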
